A study of Danio rerio with 27 samples.

Results

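Zebrafish larvae cooled in the presence of a MEK inhibitor were compared directly with larvae cooled in the presence of a Foxo1 inhibitor, with no vehicle library on either side of the difference. The members were the 3 libraries labelled 10C-PD and the 3 labelled 10C-AS, 6 of the 27 libraries of the series, and all 24101 Ensembl gene identifiers of the deposited table. Whole AB-strain larvae were taken at 96 h post-fertilization (hpf) and held for 12 h at 10 °C in 5 µM PD0325901 (10C-PD) or in 0.5 µM AS1842856 (10C-AS). Sets with the same inhibitors at 28 °C (28C-PD and 28C-AS) shared the age, strain, doses and exposure time, and larvae with 0.1% DMSO alone at 10 °C (10C-DMSO) gave the vehicle level of each named gene. The inhibitors differ in target, compound and dose, and these cannot be told apart in the comparison. Each library came from pooled larvae, and no label says that the 3 libraries of a group came from separate clutches, so the p-values measure only the spread between libraries. That spread was estimated from all 27 libraries of the series, and not from the 6 compared alone.

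MEK is the kinase that phosphorylates and activates ERK. Active ERK switches on immediate early genes such as the egr and fos families within minutes, and it also induces its own brakes, the dual specificity phosphatases (dusp genes) and the Sprouty proteins (spry genes). Foxo1 is a forkhead transcription factor held out of the nucleus by insulin signaling through Akt, and in mammals FoxO factors drive genes for cell death, cell cycle arrest, autophagy and glucose synthesis.

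Levels are given as TPM (transcript abundance relative to the library total) divided by a size factor for each library, called scaled TPM here. Differences are 10C-PD minus 10C-AS on the log2(scaled TPM + 1) scale, so a negative value is a lower level under the MEK inhibitor, and the added 1 makes the change of weakly expressed genes look smaller. An identifier was called when its Benjamini-Hochberg adjusted p from limma over all identifiers was at most 0.05 and its fold was at least 1.5, which is 0.585 on the log2 scale. TPM keeps no record of sequencing depth, and the read totals that the study lists were not used here, so no depth stands behind the values given. The libraries within 10C-PD and within 10C-AS correlated at r = 0.976 to 0.977, and libraries across both groups at 0.972 to 0.974, so no library of these groups stood apart. Transcripts of the mitochondrial genome took 10.98% to 11.8% of the TPM in 10C-PD and 11.99% to 12.9% in 10C-AS. The vehicle libraries were less even, with 8.42% in 10C-DMSO replicate 1 against 11.2% and 11.4% in replicates 2 and 3.

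Few transcripts separated the inhibitors in the cold, and the lower genes in 10C-PD included many known as ERK targets. Of the 24101 identifiers, 106 were called, which is 0.440% of those tested. In 10C-PD, 64 were lower than in 10C-AS (0.266%) and 42 were higher (0.174%). The median difference was -1.03 over the lower identifiers and 0.88 over the higher ones, against -0.01 over all identifiers. A change of at least 2-fold on this scale was reached by 34 of the 64 lower and 15 of the 42 higher identifiers. The groups did not overlap for 105 of the 106, while 7.88% of all identifiers had every 10C-PD library below every 10C-AS library and 6.87% had every 10C-PD library above. Groups that do not overlap were also a condition for naming the largest falls and rises, so for those genes it is no added support. In RNA from whole larvae, fewer cells of a type and less RNA per cell cannot be told apart.

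Of the 106 called identifiers, 44 kept their call under every alternative processing that tested them, 35 lower and 9 higher, and 65 kept it when each of the 6 libraries was left out in turn. With the spread taken from only the 6 libraries compared, 76 identifiers were called, 58 of them among the 106. Listed values of 0 touched 16 of the 106, and for 10 of them all 3 libraries of a group were at 0, 6 in 10C-AS and 4 in 10C-PD. An exact 0 in such a table can be a failed estimate. A symbol shared with another identifier was found for 29, for which reads could be split between copies, and 29 had only a clone or locus name.

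**Figure D1:**
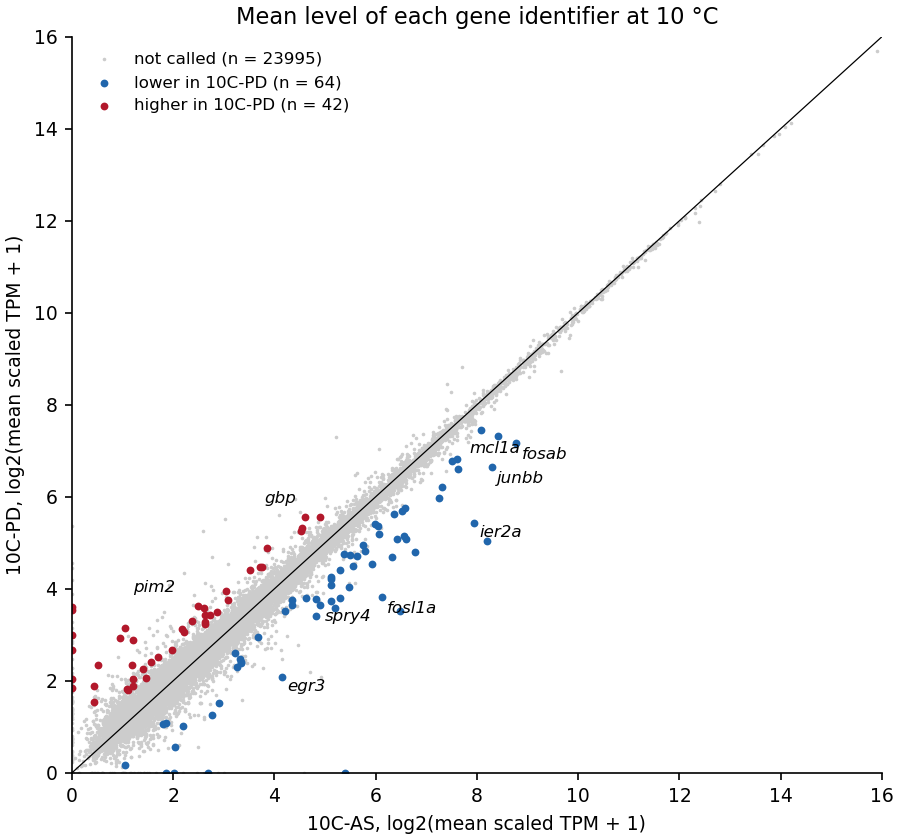
Mean level of each of the 24101 identifiers in 10C-AS (x axis) and 10C-PD (y axis), both as log2(mean scaled TPM + 1), with the line of equal levels. The 64 identifiers called lower (blue) lie below the line and reach high levels (fosab, junbb, ier2a), while the 42 called higher (red) sit mostly at low levels.

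The immediate early transcription factors were the group with the most calls. Of 48 identifiers of this list, 15 were lower in 10C-PD, none was higher and the median difference was -0.16. Of those 15, 12 kept the call under every alternative. The egr genes encode zinc finger factors transcribed within minutes of ERK activation, and egr1 had the largest fall of the list. The annotation holds egr1 under a pair of identifiers. At ENSDARG00000037421 the 10C-PD libraries stood at 36.5, 33.3 and 25.5 scaled TPM and the 10C-AS libraries at 349, 260.2 and 276. The mean was thus 9.29 times as high in 10C-AS, with a log2 difference of -3.18 ± 0.12 (SE), adjusted p = 4.6e-13 by limma. The other copy, ENSDARG00000115563, gave 11.4, 10.7 and 9.37 in 10C-PD against 95.02, 88.98 and 81.5 in 10C-AS, a difference of -2.96. No library of either group came near the other for either copy, and how reads were divided between the copies is not known. 

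Levels of egr3 (ENSDARG00000089156) were 3.42, 3.13 and 3.1 scaled TPM in 10C-PD and 16.1, 16.3 and 18.02 in 10C-AS, so the mean was 5.22 times as high under AS1842856 (log2 difference -2.08 ± 0.07 (SE), adjusted p = 1.4e-13, limma). For egr4 (ENSDARG00000077799) the libraries gave 26.5, 26.8 and 21.7 in 10C-PD and 73.97, 81.2 and 81.5 in 10C-AS (difference -1.62, adjusted p = 1.1e-09, limma). The vehicle libraries lay between them for egr4, at 53.2, 55.3 and 44.6, whereas for egr3 they were at 16.9, 17.6 and 16.9, the level of 10C-AS. A further family member, egr2a, was lower too but weakly expressed, with means of 1.13 and 2.64 (difference -0.78). It was named after its values were seen, and its call was lost with a pseudocount of 0.1 and with only the 6 libraries in the fit.

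The fos and jun genes encode the subunits of the AP-1 transcription factor. For fosab, the zebrafish c-fos gene (ENSDARG00000031683), 10C-PD held 134, 174 and 121 scaled TPM and 10C-AS 467, 421 and 429.5, a log2 difference of -1.63 ± 0.17 (SE), adjusted p = 5.7e-06 (limma). For fosl1a, which encodes a Fra-1 type subunit (ENSDARG00000015355), the values were 12.8, 13.7 and 12.8 against 59.25, 72.5 and 75.3 (difference -2.304 ± 0.19 (SE), adjusted p = 1.0e-07, limma). The groups were far apart for both genes, with ratios of the means of 3.07 and 5.27. For junbb (ENSDARG00000104773) 10C-PD had 100.95, 102 and 94.2 and 10C-AS had 321, 318 and 304, 3.17 times as much. Smaller falls were called for fosaa (-1.04), junba (-0.89) and fosb (-0.69), the last of which lost its call with a pseudocount of 0.1. The related fosl2 did not pass, at 26.2, 29.8 and 32.1 in 10C-PD against 33.98, 40.5 and 40.1 in 10C-AS (adjusted p = 0.205, limma).

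Immediate early response genes of the ier2 family were lower too. For ier2a (ENSDARG00000099195) the libraries gave 47.5, 42.1 and 36.7 scaled TPM in 10C-PD and 259, 238 and 234 in 10C-AS (difference -2.51 ± 0.13 (SE), adjusted p = 3.9e-11, limma). For ier2b (ENSDARG00000086881) they gave 35.5, 36.9 and 30.4 and 96.2, 92.3 and 92.4 (difference -1.43 ± 0.11 (SE), adjusted p = 3.0e-08, limma). The antiproliferative gene btg2 fell from 199, 196 and 195 in 10C-AS to 98.8, 100.4 and 89.2 in 10C-PD, a ratio of 2.05. Every 10C-PD library was below every 10C-AS library for each of these 3 genes. The neuronal activity factor npas4a, named after its values were seen, had 30.98, 34.4 and 24.6 in 10C-PD and 49.4, 54.4 and 54.5 in 10C-AS (difference -0.81). Its call was lost with a pseudocount of 0.1, with only the 6 libraries in the fit and without 10C-PD replicate 3 (-0.67).

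**Figure D2:**
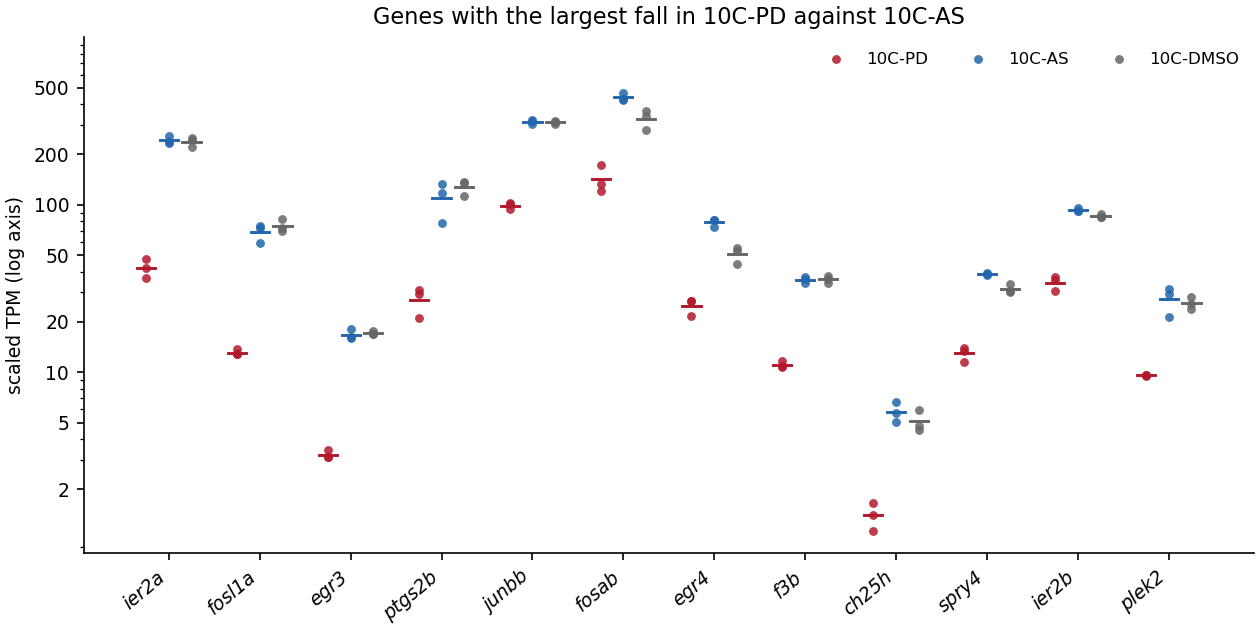
Scaled TPM in each library (points) and group mean (bars) of the 12 genes with the largest fall in 10C-PD against 10C-AS, on a log axis, with 10C-DMSO beside them. The 3 10C-PD libraries of each gene lie below all 3 10C-AS libraries, which was a condition of the choice. Differences run from ier2a (-2.51) to plek2 (-1.404), and 10C-DMSO lies near 10C-AS for most genes and between the groups for egr4.

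Genes that ERK induces to limit its own signal were lower as well. Of 43 identifiers of feedback inhibitors and ETS factors, 9 were lower in 10C-PD and none was higher, with a median of -0.12, and 7 of the 9 kept the call under every alternative. Sprouty 4, which restrains receptor tyrosine kinase signaling upstream of ERK, is encoded by spry4 (ENSDARG00000068732). Its levels were 14.01, 13.4 and 11.5 scaled TPM in 10C-PD and 37.9, 38.5 and 39.04 in 10C-AS, a log2 difference of -1.502 ± 0.09 (SE), adjusted p = 9.9e-10 (limma). The nuclear phosphatase gene dusp2 (ENSDARG00000098108) stood at 11.3, 12.8 and 10.6 against 30.2, 26.9 and 28.99 (difference -1.24 ± 0.09 (SE), adjusted p = 2.3e-08, limma). The groups were clearly separate for both.

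The ERK phosphatase gene dusp5 is annotated at a pair of identifiers, at 22.2, 20.8 and 21.6 in 10C-PD and 42.03, 47.9 and 47.9 in 10C-AS for ENSDARG00000019307 (difference -1.06) and with a difference of -0.93 for ENSDARG00000110831. The second call was lost with a pseudocount of 0.1, with only the 6 libraries in the fit, and without 10C-AS replicate 3 or 10C-PD replicate 1. The cytoplasmic ERK phosphatase dusp6 and the nuclear phosphatase dusp4, both named after their values were seen, moved less. For dusp6 the identifier ENSDARG00000070914 gave 54.01, 50.5 and 48.04 against 89.6, 85.3 and 97.2, a difference of -0.82 ± 0.07 (SE), adjusted p = 2.7e-07 (limma). Its other copy differed by -0.89, dusp4 by -0.86, and the pleckstrin homology gene phlda2, also with a shared symbol, by -1.26. The kinases and adaptors of the Ras to ERK cascade themselves were not among the calls: 0 of 30 identifiers passed in either direction, with a median of -0.01 and 3 at an unadjusted p under 0.05.

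The other genes among the 12 largest falls have various roles. Tissue factor, which starts blood clotting, is encoded by f3b (ENSDARG00000005673), at 10.7, 10.9 and 11.6 scaled TPM in 10C-PD and 34.1, 37.2 and 36.1 in 10C-AS (difference -1.61 ± 0.10 (SE), adjusted p = 9.9e-10, limma). The cyclooxygenase gene ptgs2b (ENSDARG00000010276) spread more widely, 21.1, 29.2 and 30.8 against 77.8, 118 and 133 (difference -1.96 ± 0.23 (SE), adjusted p = 2.0e-05, limma). Its groups did not overlap, which was a condition for these 12 falls. The pleckstrin gene plek2 (ENSDARG00000012789) had 9.58, 9.69 and 9.54 in 10C-PD and 21.4, 29.4 and 31.3 in 10C-AS (difference -1.404). Cholesterol 25-hydroxylase, ch25h (ENSDARG00000045190), was weakly expressed, at 1.13, 1.66 and 1.404 against 5.72, 6.66 and 5.07 (difference -1.51 ± 0.15 (SE), adjusted p = 3.7e-06, limma), and was not called with a pseudocount of 0.1 (adjusted p = 0.0555, limma). 

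Of 45 inflammation identifiers, 4 were lower in 10C-PD, none was higher and the median was -0.02. These were ptgs2b, the transcription factor gene cebpb and the cytokine genes il1b and il11b. The cebpb libraries read 66.8, 76.6 and 76.7 in 10C-PD and 149.5, 162 and 161 in 10C-AS, 2.15 times as much (difference -1.09 ± 0.12 (SE), adjusted p = 9.2e-06, limma). The cytokine calls were weak. For il1b the levels were 5.56, 3.76 and 4.23 against 6.94, 11.6 and 8.52 (adjusted p = 0.0427, limma), and the call was lost in 9 of its alternatives, among them leaving out 10C-AS replicate 2 (difference -0.67). For il11b they were 0.178, 0 and 0.1905 against 0.889, 1.09 and 1.25, and leaving out 10C-AS replicate 2 or 3 or 10C-PD replicate 2 ended the call. The 42 leukocyte marker identifiers had 0 calls. Their summed level was 1570 to 1615 scaled TPM in 10C-PD and 1760 to 1809.9 in 10C-AS, without overlap, with 10C-DMSO at 1313 to 1603. The apolipoprotein gene apoc1 held the largest share of it, with means of 696 and 904. That gap was about as wide as the gap in the sum, so the sum says little about the other markers. The neutrophil peroxidase gene mpx (5.39 and 5.92) and the macrophage receptor gene csf1ra (3.85 and 4.17) were low in both groups, and no leukocyte marker had a mean of 0. The part of leukocyte content in the inflammation calls was not tested.

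The epidermis list was the only tissue list with more than 1 call. Of 70 epidermis identifiers, 3 were lower in 10C-PD, none was higher and the median was -0.07. The claudin of tight junctions cldnb had 145, 165 and 166 scaled TPM in 10C-PD and 305, 354 and 359 in 10C-AS (difference -1.09 ± 0.09 (SE), adjusted p = 1.2e-07, limma). The E-cadherin gene cdh1 stood at 44.6, 49.4 and 51.7 against 74.2, 85.1 and 83.98 (difference -0.73 ± 0.06 (SE), adjusted p = 2.6e-07, limma). All 3 libraries of 10C-PD were below all of 10C-AS for both junction genes. The adhesion gene epcam differed by -0.63, a call that was lost without 10C-AS replicate 2 (-0.55) and without 10C-PD replicate 2 (-0.56). The summed level of the whole epidermis list ran from 16225 to 16986 scaled TPM in 10C-PD and from 16589 to 17576 in 10C-AS, ranges that overlap, and the part of skin content in these calls was not tested. The Notch-responsive gene her4.1, the 1 call of 39 in that list and also the 1 call of 34 in the glia list, had 4.63, 3.24 and 4.97 against 8.23, 10.6 and 8.55 (difference -0.95), with 10C-DMSO at 4.02, 4.33 and 4.43. It did not pass with only the 6 libraries in the fit (adjusted p = 0.11, limma). The other 12 tissue lists, from photoreceptors, lens, muscle, heart, blood, liver, pancreas, intestine, neurons, leukocytes, cartilage and bone to endothelium, had 0 calls and medians from -0.11 to 0.01. Of the 14 tissue lists, 3 had a summed level that was lower in every 10C-PD library than in every 10C-AS library. Of all single identifiers 7.88% were apart in this way, but a sum over many identifiers is not a like measure. The 3 lists were leukocytes, where the gap was about that of apoc1 alone, neurons (2663 to 2742 scaled TPM against 2807 to 2894) and liver (14826 to 16773 against 16802 to 16849). A negative difference was found for 47 of 54 liver, 44 of 51 neuron and 23 of 42 leukocyte identifiers. The part of these tissues in any call was not tested. Each of the 14 tissue lists had at least 18 identifiers in the table.

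The genes that were higher in 10C-PD included 2 of the 76 FoxO target identifiers, bbc3 and ccng2, both also in the p53 pathway list. Only 10 genes met the rule for the largest rises, and their shifts were smaller than the leading falls. The kinase gene pim2, whose product promotes cell survival (ENSDARG00000059001), read 11.98, 11.1 and 11.1 scaled TPM in 10C-PD and 4.48, 4.33 and 5.16 in 10C-AS, with 10C-DMSO at 8.82, 10.23 and 10.9. The mean was 2.45 times as high in 10C-PD (difference 1.13 ± 0.17 (SE), adjusted p = 7.7e-04, limma). The gene of Puma, a BH3-only death protein and a FoxO3 target in mammals, is bbc3 (ENSDARG00000069282). It read 10.02, 11.6 and 11.3 in 10C-PD and 5.49, 5.19 and 4.61 in 10C-AS, 2.15 times as much under the MEK inhibitor (difference 0.97 ± 0.11 (SE), adjusted p = 8.6e-06, limma). The groups did not overlap for either gene, and the vehicle libraries of bbc3 were at 10.4, 10.6 and 10.4. 

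For ccng2, which encodes cyclin G2, an inhibitor of the cell cycle (ENSDARG00000017602), the libraries gave 38.4, 38.7 and 39.6 in 10C-PD and 20.98, 20.97 and 25.4 in 10C-AS (difference 0.77 ± 0.11 (SE), adjusted p = 5.3e-04, limma). For herpud1, a component of endoplasmic reticulum-associated degradation (ENSDARG00000024314), they gave 35.3, 37.4 and 38.5 and 24.1, 21.2 and 20.9 (difference 0.73 ± 0.08 (SE), adjusted p = 4.1e-06, limma). The GSK3-binding protein gene gbp (ENSDARG00000040059) had the narrowest spread relative to its shift, at 47.2, 47.4 and 43.99 against 24.4, 22.4 and 23.1 (difference 0.96 ± 0.08 (SE), adjusted p = 5.5e-08, limma). No 10C-AS library of these genes reached the lowest 10C-PD library, and the means of ccng2, herpud1 and gbp were 1.73, 1.68 and 1.99 times as high in 10C-PD. The UBA-domain gene ubald1b differed by 0.89, from 15.02, 12.1 and 16.01 in 10C-PD to 7.03, 7.41 and 7.39 in 10C-AS.

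The remaining rises were less secure. The gene of Smac/Diablo, a mitochondrial protein that frees caspases from their inhibitors, is diabloa, at 28.7, 25.9 and 31.1 in 10C-PD and 11.7, 18.4 and 10.1 in 10C-AS (difference 1.07 ± 0.15 (SE), adjusted p = 3.6e-04, limma). It no longer passed with only the 6 libraries in the fit (adjusted p = 0.155, limma), nor did arid6 (difference 0.70, adjusted p = 0.135 there), which encodes a DNA-binding protein. The endothelin gene edn1 (0.67) lost its call in each of the 6 fits without a library, with differences from 0.64 to 0.70. The forkhead gene foxq1a (0.66, adjusted p = 0.0464, limma) did so too, with differences from 0.57 to 0.72. 

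**Figure D3:**
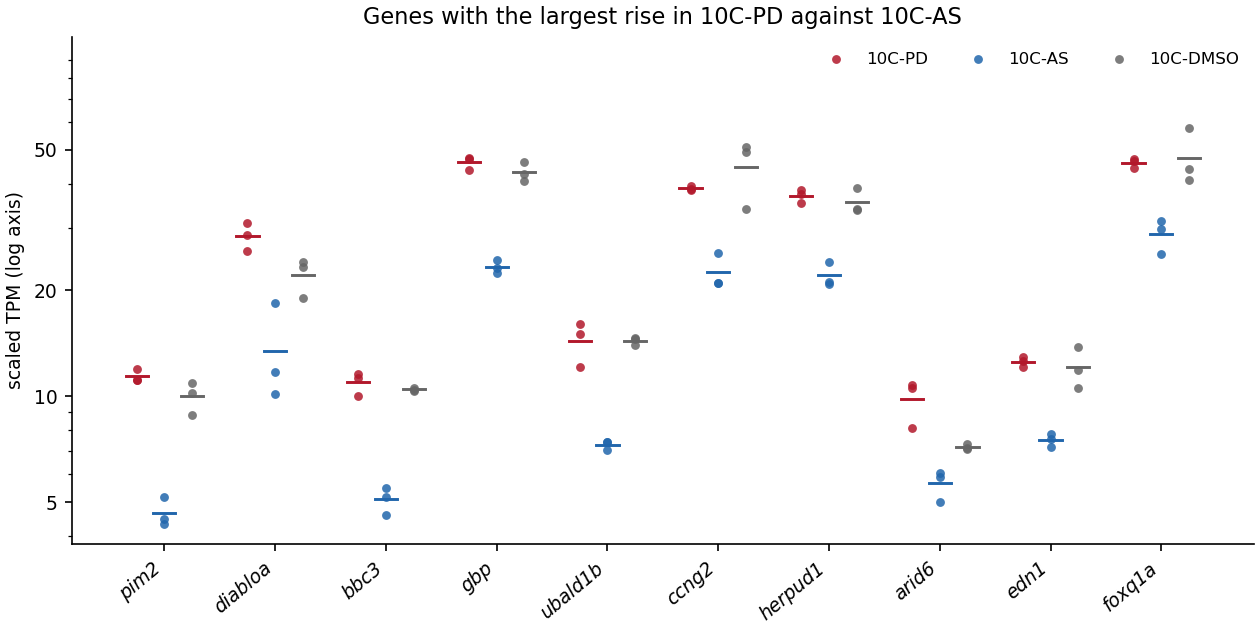
Scaled TPM in each library (points) and group mean (bars) of the 10 genes with the largest rise in 10C-PD against 10C-AS, on a log axis, with 10C-DMSO beside them. Values of 10C-PD and 10C-AS that do not overlap were a condition of the choice. The 3 10C-AS libraries of each gene are the lowest of the 9, and 10C-DMSO lies close to 10C-PD for most genes, as for bbc3 and ubald1b.

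The FoxO lists gave few calls in the cold. Of 76 FoxO target identifiers, 2 were higher in 10C-PD (bbc3 and ccng2), none was lower, and the median was -0.01, like that of all identifiers. Of the 7 identifiers of FoxO factors themselves, 0 were called, 2 had an unadjusted p under 0.05, 6 had a positive difference and the median was 0.09. The foxo4 libraries read 17.8, 16.8 and 17.2 in 10C-PD and 12.1, 13.7 and 13.5 in 10C-AS, a difference of 0.37 ± 0.05 (SE), adjusted p = 2.8e-04 (limma), past the p threshold but short of the fold. The foxo1b levels were 1.52, 1.27 and 1.56 against 1.06, 0.881 and 0.9199 (adjusted p = 0.275, limma), and those of foxo6a overlapped (0.15). Insulin, PI3K and TOR signaling genes had 0 calls among 49 identifiers, with 8 at an unadjusted p under 0.05 and a median of -0.05.

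Genes of cell death and survival gave few calls. Of 39 pro-apoptotic identifiers, 2 were higher in 10C-PD (bbc3 and diabloa) and none was lower (median 0.05). Of 27 anti-apoptotic and Pim identifiers, 1 was higher (pim2) and 1 was lower (mcl1a), with a median of -0.01. The mcl1 genes encode relatives of BCL2 that protect mitochondria, and the pair differed in direction. For mcl1a the libraries gave 104, 119 and 115 scaled TPM in 10C-PD and 185, 203 and 193 in 10C-AS (difference -0.78 ± 0.06 (SE), adjusted p = 5.5e-08, limma). For mcl1b they gave 76.997, 94.5 and 86.02 and 63.5, 65.96 and 63.7, a difference of 0.40 that passed on p (0.0223, adjusted, limma) but not on the fold. No 10C-PD library of mcl1a was above any of 10C-AS, and the reverse held for mcl1b. Of 47 p53 pathway identifiers, 2 were higher (bbc3 and ccng2) and 1 was lower (btg2), with a median of 0.05. The integrated and unfolded stress response list had 1 higher (herpud1) and 1 lower (cebpb) of 62, with a median of -0.04.

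The level of the named genes in 10C-DMSO was set beside both inhibitors. These differences share the 10C-DMSO libraries, so they are given only side by side. Most of the genes were also chosen on the difference between these same 10C-PD and 10C-AS libraries. A gap between 1 of those groups and the vehicle is therefore no added support. For egr1 at ENSDARG00000037421 the difference from 10C-DMSO was -3.104 in 10C-PD (adjusted p = 5.0e-13, limma) and 0.08 in 10C-AS (adjusted p = 0.803). For junbb the values were -1.64 and 0.02, for f3b -1.61 and -0.004, and for cldnb -1.29 and -0.20. These genes were called lower than the vehicle in 10C-PD and were not called in 10C-AS. A different picture held for egr4, at -1.0 in 10C-PD and 0.62 in 10C-AS (adjusted p = 0.00157, limma), and for fosaa, at -0.41 and 0.62. In both, the 10C-AS libraries were called above the vehicle. For her4.1 the values were -0.01 in 10C-PD and 0.94 in 10C-AS. 

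On the side of the rises, bbc3 differed from 10C-DMSO by 0.06 in 10C-PD and by -0.91 in 10C-AS (adjusted p = 4.5e-05, limma). For pim2 the values were 0.18 and -0.96, for ccng2 -0.17 and -0.94, for herpud1 0.06 and -0.67, and for gbp 0.09 and -0.87. In each of these 5 genes the 10C-AS libraries were called below the vehicle and the 10C-PD libraries were not called. For mcl1b the pair of values was -0.20 and -0.61. Several of these genes, among them egr1, fosab, junbb, pim2 and herpud1, were named by the study from these same libraries, so their direction is not independent evidence. The genes klf2b and tnfsf10, which the study names for the p38 inhibitor SB203580 and not for the compounds compared here, did not pass. Their differences were 0.10 and -0.20.

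Other processes gave few or no calls between the inhibitors in the cold. No identifier was called among 52 heat shock, 55 circadian clock, 49 autophagy, 64 glucose and carbohydrate, 70 fatty acid and lipid, 33 cholesterol synthesis, 108 ribosomal protein, 76 ribosome biogenesis, 59 proteasome, 46 oxidative stress or 30 Wnt feedback identifiers. With the Ras to ERK, FoxO factor and insulin lists, that made 14 of the 27 process lists, with medians from -0.06 to 0.09. The counts at an unadjusted p under 0.05 were 5, 6, 5, 3, 7, 0, 5, 18, 5, 4 and 4 in the order of the first 11 lists, against 2311 of all 24101 identifiers. Summed levels still stood apart for some of these lists. Ribosome biogenesis, with 18 of 76 under that p, ran from 2123 to 2274 scaled TPM in 10C-PD and from 2446 to 2461 in 10C-AS. The Ras to ERK cascade ran from 594 to 640.4 and from 543 to 558. In 10C-DMSO the sums of these lists ran from 2098 to 2270 and from 558 to 616. Of the 27 process lists, 11 had a sum that was lower in every 10C-PD library than in every 10C-AS library. Only the Ras to ERK cascade, 1 list, had a higher one. Of all single identifiers, 7.88% and 6.87% were apart in these directions, but a sum over many identifiers is not a like measure. Lists share members, and a sum follows its most abundant ones. Oxidative phosphorylation was among the 11, although 76 of its 123 members had a positive difference. Oxidative phosphorylation had 1 lower of 123 (median 0.02), ndufa1, and cell division had 1 higher of 82 (median 0.06), cdc6. Both rest on values of 0: ndufa1 was listed at 0 in all 3 10C-PD libraries and at 11.6, 88.99 and 22.7 in 10C-AS, and cdc6 at 0 in all 3 10C-AS libraries and at 4.49, 6.72 and 9.89 in 10C-PD. The ndufa1 call ended without 10C-AS replicate 2 or 3 or any 10C-PD library, and the cdc6 call without 10C-PD replicate 3. Of 50 xenobiotic response identifiers, 1 was higher, foxq1a, with a median of -0.03. The lists together covered 42 of the 106 calls.

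At 28 °C the same pair of inhibitors separated far more transcripts, in libraries other than those of the 10 °C comparison. Both comparisons took the spread of each gene from the same fit over all 27 libraries, so their calls are not independent. In 28C-PD, 1193 identifiers were higher than in 28C-AS (4.95% of those tested) and 1494 were lower (6.20%), 2687 in all (11.1%). Libraries across 28C-PD and 28C-AS correlated at r = 0.949 to 0.954, lower than the 0.972 to 0.974 at 10 °C. The split between directions depended on the scaling, since 44.4% of the calls were higher with size factors and 68.6% with TPM as deposited, which moved the median of all identifiers from 0.01 to 0.13. The difference between the temperatures was itself called for 2287 identifiers (9.49%), 1220 of them more positive at 10 °C (5.06% of those tested) and 1067 more negative (4.43%). That is 53.3% more positive, or 33.9% with TPM as deposited. Of the 2687 called at 28 °C, 2642 were not called at 10 °C, and for 1751 (65.2%) the difference between temperatures was called. Their median absolute log2 difference was 0.78 at 28 °C and 0.10 at 10 °C. These 2687 were chosen on their 28 °C values, which the test of the difference uses again. The 65.2% and the gap between the medians were therefore set in part by the choice.

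The genes lower in 10C-PD overlapped in part with those lower in 28C-PD. Of the 64, 30 (46.9%) were also lower at 28 °C, which is 2.01% of the 1494, 2 were called in the other direction and 32 were not called. Of the 42 higher ones, 12 (28.6%) were also higher at 28 °C, 1.01% of the 1193, 1 was called lower and 29 were not called. The lower set had a median of -1.03 at 10 °C and -0.57 at 28 °C, and the higher set 0.88 and 0.45, with the caveat that both were chosen on their 10 °C values. Across all 24101 identifiers the differences at 10 °C and 28 °C had a Pearson r of 0.14 and a Spearman rho of 0.11, and across the 106 called at 10 °C r was 0.60 and rho 0.61. These are descriptions across genes, which are not independent replicates, and the points of a temperature share its 6 libraries.

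**Figure D4:**
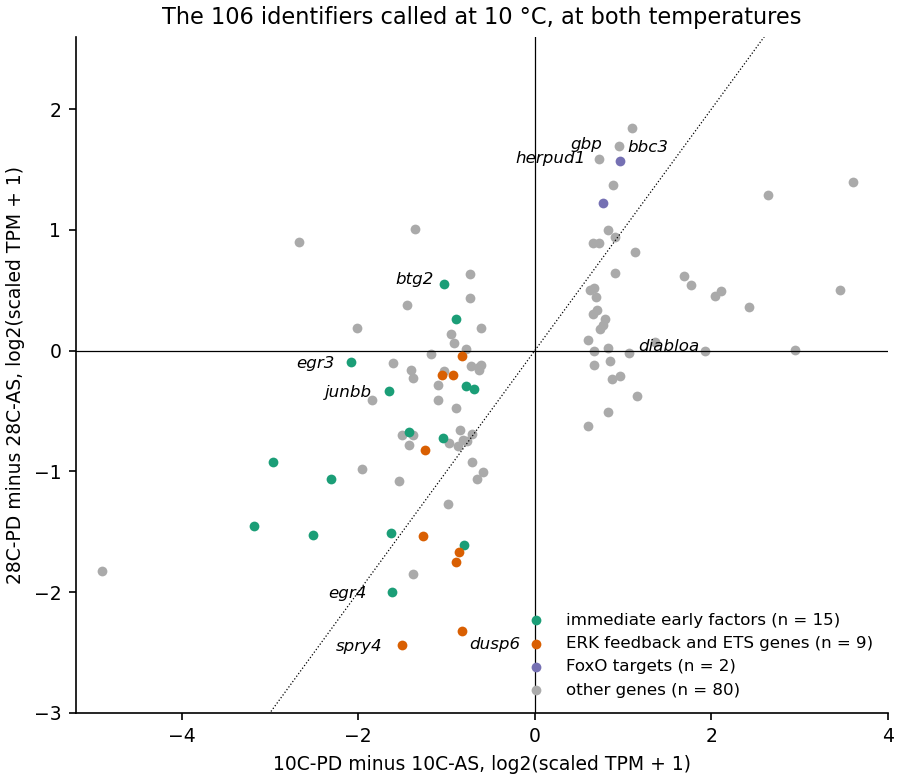
Difference between PD and AS at 10 °C (x axis) and at 28 °C (y axis), both in log2(scaled TPM + 1), for the 106 identifiers called at 10 °C, coloured by list, with the dotted line of equal differences. Among the immediate early factors, egr3 lies near 0 at 28 °C, junbb at -0.33 and egr4 at -1.999, and 9 of the 15 were called lower there. The points of spry4 and dusp6 lie below the dotted line, and those of bbc3, gbp and herpud1 lie above it.

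The ERK targets divided by temperature. Of the 15 immediate early identifiers lower at 10 °C, 9 were also lower at 28 °C. The difference between temperatures was called for 10, and in 9 of these the fall on the log2(scaled TPM + 1) scale was larger at 10 °C. The 15 were chosen on their 10 °C values, which this test uses again, so the choice itself made that direction more likely. Over the whole list of 48, the difference was called more positive at 10 °C for 1 and more negative for 13. The shares over all identifiers were 5.06% and 4.43%. At 28 °C, 4 of the 48 were higher and 10 were lower in 28C-PD. The added 1 shrinks changes of genes that are weakly expressed at 28 °C. For fosl1a, with means of 0.60 in 28C-PD and 2.43 in 28C-AS, the ratio of means was 4.07 at 28 °C and 5.27 at 10 °C. For egr1 at ENSDARG00000037421 it was 3.01 at 28 °C and 9.29 at 10 °C. For egr3 the fall of -2.08 at 10 °C compared with -0.09 at 28 °C (difference between temperatures -1.99 ± 0.10 (SE), adjusted p = 5.7e-11, limma), where the levels were only 1.58, 1.66 and 1.501 in 28C-PD and 2.03, 1.78 and 1.47 in 28C-AS. For junbb -1.66 compared with -0.33, and for f3b -1.61 compared with -0.11, with mean levels of 3.22 and 3.54 at 28 °C. These genes were expressed well below their cold level at 28 °C whichever inhibitor was present. For fosab and egr4 the falls on this scale were -1.63 and -1.51, and -1.62 and -1.999, at 10 °C and 28 °C. The difference was not called (adjusted p = 0.804 and 0.0703, limma). By the ratio of means, egr4 fell more at 28 °C. Its means there were 0.59 in 28C-PD and 5.38 in 28C-AS, 9.08 times as much, against 3.15 times at 10 °C. The anti-apoptotic mcl1a differed by -0.78 at 10 °C and 0.01 at 28 °C (adjusted p of the difference = 9.9e-07, limma), and btg2 by -1.03 and 0.55.

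Feedback inhibitors and ETS factors showed the other order. In this list 19 of 43 identifiers were lower in 28C-PD and 3 were higher, against 9 and 0 at 10 °C. Of the 9 lower at 10 °C, 6 were also lower at 28 °C, and 13 were lower at 28 °C alone. The difference between temperatures was called for 22 of the 43, 16 more positive and 6 more negative at 10 °C. The spry4 libraries read 2.55, 2.19 and 3.32 scaled TPM in 28C-PD and 18.1, 18.6 and 19.8 in 28C-AS, 7.01 times as much, and the fall was -2.44 against -1.502 in the cold (difference between temperatures 0.94 ± 0.13 (SE), adjusted p = 2.1e-05, limma). For dusp6 (ENSDARG00000070914) the fall was -2.32 at 28 °C, from 43.3 to 7.85, and -0.82 at 10 °C. The ETS factor gene etv4, a target of FGF signaling through ERK, gave the widest contrast. It read 2.31, 3.19 and 2.71 in 28C-PD against 15.3, 16.02 and 18.9 in 28C-AS, whereas at 10 °C it read 13.5, 14.6 and 12.4 against 13.2, 13.5 and 13.1, overlapping ranges (difference between temperatures 2.27 ± 0.12 (SE), adjusted p = 7.2e-11, limma). Its relative etv5b, named after its values were seen, differed by -2.496 at 28 °C and -0.45 at 10 °C at the identifier with the larger fall. The dusp5 and ets2 genes went the other way, with no call at 28 °C. The ets2 call at 10 °C (-0.82) was lost with only the 6 libraries in the fit and without 10C-AS replicate 2 or 3 or 10C-PD replicate 1 or 2.

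Several of the leading rises were larger at 28 °C. The bbc3 difference was 1.57 at 28 °C, with 5.12, 4.82 and 4.71 in 28C-PD and 1.08, 1.001 and 0.868 in 28C-AS, against 0.97 at 10 °C (difference between temperatures -0.60 ± 0.15 (SE), adjusted p = 0.00666, limma). The herpud1 difference was 1.59 against 0.73, the gbp difference 1.698 against 0.96 and the foxo4 difference 1.17 against 0.37, and the contrast between temperatures was called in each. For pim2 (0.81 and 1.13) and ccng2 (1.23 and 0.77) it was not called (adjusted p = 0.414 and 0.0528, limma). Of the 10 leading rises, diabloa and edn1 were larger in the cold by that test, with differences between temperatures of 1.09 and 0.79. For klf2b, not called in the cold, the difference was 1.06 at 28 °C.

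Processes with few or no calls in the cold had more at 28 °C, where calls were also more frequent over all identifiers. Of all identifiers, 4.95% were higher and 6.20% lower in 28C-PD, against 0.174% and 0.266% in 10C-PD. Ribosome biogenesis had 53 lower and 0 higher of 76 identifiers in 28C-PD (median -0.76, or -0.62 with TPM as deposited, where 40 were lower), and 0 calls with a median of -0.04 at 10 °C. Cell division had 22 lower and 0 higher of 82 at 28 °C (median -0.40; 10 lower and 1 higher as deposited). Autophagy had 15 higher and 0 lower of 49 at 28 °C (median 0.37), and xenobiotic response 13 higher and 1 lower of 50 (median 0.37). FoxO targets had 13 higher and 8 lower of 76 at 28 °C, with a median of 0.24 (20 higher and 8 lower as deposited, median 0.37). The difference between temperatures was called for 45 ribosome biogenesis and 25 cell division identifiers, all more positive at 10 °C, and for 15 autophagy identifiers, all more negative at 10 °C. Wnt feedback genes had 2 higher and 11 lower of 30 at 28 °C (4 and 8 as deposited), and the 2 higher were near the share over all identifiers. In larvae with 0.1% DMSO alone at 28 °C (28C-DMSO), mitochondrial transcripts took 7.30%, 9.91% and 9.69% of the TPM in replicates 1 to 3. These libraries gave a vehicle level for the sums. For ribosome biogenesis it was 1701 to 1780 scaled TPM, against 1732 to 1778 in 28C-PD and 3452 to 3601 in 28C-AS. For cell division it was 1304 to 1314, against 1288 to 1350 and 1698 to 1810. For autophagy it was 1343 to 1361, against 1240 to 1283 and 924 to 934.

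**Figure D5:**
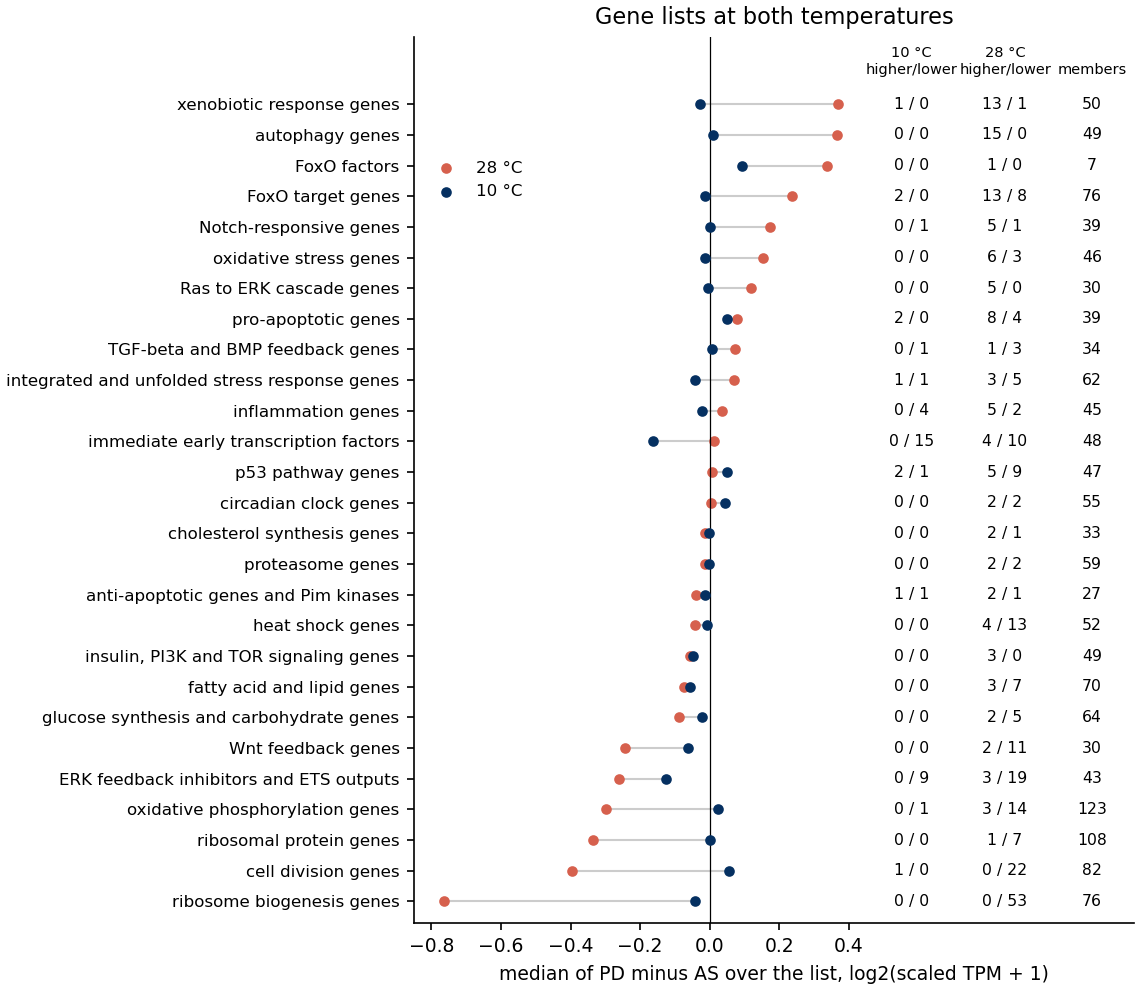
Median difference between PD and AS over each of the 27 process lists at 10 °C (dark points) and 28 °C (red points), in log2(scaled TPM + 1), with the called identifiers in each direction and the measured members at the right. The dark points stay between -0.16 and 0.09, while the red points run from -0.76 for ribosome biogenesis to 0.37 for autophagy and xenobiotic response.

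Genes of the retina were among the widest contrasts between temperatures. The cone phosphodiesterase subunit gene pde6ha (ENSDARG00000102558) stood at 441, 487 and 534 scaled TPM in 10C-PD and 491, 485 and 525 in 10C-AS, overlapping ranges, but at 47.5, 63.3 and 72.4 in 28C-PD and 4.903, 4.49 and 5.88 in 28C-AS. The retinoid isomerase gene rpe65a (ENSDARG00000007480) had 81.7 and 86.1 at 10 °C against 53.4 in 28C-PD and 8.91 in 28C-AS. Neither differed between the inhibitors beyond the spread at 10 °C (-0.04 and -0.08), and both were lower in 28C-AS than in 28C-PD. The photoreceptor list as a whole had 9 higher and 2 lower of 62 in 28C-PD (median 0.17, or 0.31 as deposited, where 12 were higher) and 0 calls at 10 °C. On the intestinal side, the peptidase gene ace stood at 22.5, 25.1 and 24.4 in 10C-PD and 26.8, 21.4 and 24.96 in 10C-AS, and at 8.47, 9.098 and 8.54 in 28C-PD against 37.6, 34.96 and 39.8 in 28C-AS. Of 45 intestine identifiers, 10 were lower and 3 higher in 28C-PD. Over all identifiers, 6.20% were lower and 4.95% higher there. The 3 higher intestine and 2 lower photoreceptor identifiers were not far from those shares.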

How the data were processed

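RNA of whole larvae was sequenced by the authors and quantified with Salmon (version 0.13.1 in the submitters' processing notes) against Ensembl release 101 transcripts, and the deposited table holds TPM per gene identifier. The authors filtered the table, requiring for some group that no replicate fell below a TPM of 1, and all 24101 identifiers were checked to meet this. Because the deposited TPM values are not counts, no count model was used.

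For scaled TPM, a size factor from the median of ratios (0.935 to 1.103) was divided out of each library. Values were transformed as log2(value + 1) and fitted with limma 3.58.1 (lmFit, eBayes with trend) in R 4.3.3 over all 27 libraries, 9 groups of 3, with 18 residual degrees of freedom. Calls needed a Benjamini-Hochberg adjusted p of at most 0.05 over all identifiers and a fold of at least 1.5. An exact two-sided permutation test of 3 against 3 cannot go below p = 0.1, so none was run for single genes. The scripts were tested on simulated data.

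Named genes were the 12 largest called changes each way where the group mean reached 5 scaled TPM on either side, values kept apart between groups, and the symbol was neither shared nor a clone name; genes the study names for its inhibitors; up to 4 called members of each of 41 lists (27 of processes, 14 of tissues), or the 2 most abundant where none was called, most of which are not printed; and the 5 largest called differences between temperatures and the 4 largest changes at 28 °C each way, with groups apart at 1 temperature or more. The members and lists were chosen with earlier results of these data known. Replicate numbers were not used to pair libraries in the main fit. Over all identifiers, deviations of same-numbered libraries correlated weakly, from -0.0046 to 0.04 at 10 °C and from -0.014 to 0.054 at 28 °C. Such correlations cannot exclude a clutch or day shared by number. Alternatives were other scalings, pseudocounts, a filter on low values, fewer libraries, library weights, a replicate block, each replicate left out, and identifiers listed at 0 left out. No genome of the study's build was used here, so no coordinates or sequences are given. One gene that met the naming rule is not reported here.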

Additional observations from a re-analysis of the deposited data

Results flagged for a closer look

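The tests of the difference between the temperatures, 10C-PD minus 10C-AS less 28C-PD minus 28C-AS by limma, gave 2287 called identifiers. The genes described above that were among them are given here, with no explanation tested. Many of them were chosen on their 10 °C values, which these tests use again, so larger differences at 10 °C were made more likely by the choice. Values are on the log2(scaled TPM + 1) scale, which shrinks changes of genes weakly expressed at a temperature. More negative at 10 °C were the immediate early genes egr1 (-1.73 at ENSDARG00000037421 and -2.04 at ENSDARG00000115563), egr3 (-1.99), junbb (-1.32), fosl1a (-1.24), junba (-1.15), ier2a (-0.98), ier2b (-0.75) and btg2 (-1.58). The same direction was found for f3b (-1.50), plek2 (-1.24), ptgs2b (-0.98), dusp5 (-0.85 at ENSDARG00000019307), ch25h (-0.81), her4.1 (-1.08), cebpb (-0.81), mcl1a (-0.79), ets2 (-0.77), cldnb (-0.69) and cdh1 (-0.60). All of these genes were lower in 10C-PD than in 10C-AS. The other direction, with a larger fall at 28 °C, was found for the feedback genes spry4 (0.94), dusp6 (1.496 at ENSDARG00000070914 and 0.86 at ENSDARG00000116888) and dusp4 (0.81) and for npas4a (0.80). It was also found for copies of etv5b (2.04 at ENSDARG00000044511 and 1.67 at ENSDARG00000113744) and phlda2 (0.86 at ENSDARG00000114844) that were not called at 10 °C.

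Among the genes that were higher in 10C-PD, the difference was -0.86 for herpud1, -0.74 for gbp and -0.60 for bbc3, each with the larger rise at 28 °C. It was 1.09 for diabloa and 0.79 for edn1, with the larger rise at 10 °C, and 2.95 for cdc6, which was listed at 0 in all 3 10C-AS libraries. For foxo4 it was -0.80 and for klf2b -0.96, and neither was called at 10 °C.

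Among the 5 largest differences each way that met the naming rule, none belonged to a gene called at 10 °C. They were positive for etv4 (2.27), the chitinase gene chia.3 (2.21), MCMDC2 (1.98) and ace (1.97), and negative for pde6ha (-3.38), the F-box gene fbxo25 (-2.54), rpe65a (-2.54), ogal (-2.34) and pcmtd2a (-2.34). The noncoding RNA RNase_MRP gave 3.55, but it was listed at 0 in all 3 10C-AS libraries and in 2 of the 28C-PD libraries, 28C-AS replicate 2 held 33.4 scaled TPM against 2.55 and 1.29 in the other two, and without that library the difference was 2.36 and no longer called.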

How the results depend on the processing

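Counts of calls were within 1.5 times of the values given for every alternative with 3 exceptions. With only the 6 libraries compared in the fit, 27 identifiers were called higher in 10C-PD in place of 42. With TPM as deposited, 2022 were called higher and 924 lower in 28C-PD, in place of 1193 and 1494. Leaving out each replicate in turn gave 87 to 111 calls at 10 °C (33 to 44 higher, 50 to 67 lower), 2538 to 2700 at 28 °C (1142 to 1192 higher, 1396 to 1515 lower) and 2067 to 2240 for the difference between temperatures (1074 to 1201 more positive, 993 to 1058 more negative). The other totals at 10 °C ran from 76 with only the 6 libraries compared, of which 58 were among the 106, to 111 with TPM as deposited, of which 100 were. A replicate block gave 103, 2693 and 2311 calls for the 3 comparisons. No label says whether the replicate numbers mark a shared clutch or day. At both temperatures the PD replicates 1 and 3 correlated best with their own number and replicate 2 did not. Leaving out identifiers listed at 0, an alternative chosen after seeing the data, gave 91 calls at 10 °C. No named gene that was called changed sign. At 10 °C, 69 of 1627 tests of named genes lost a call, in 17 identifiers, and the report gives settings that ended calls beside the values; the cause was not tested. An uncalled copy each of etv5b (-0.61 without 10C-AS replicate 2) and phlda2 (-0.83 with a filter on low values) gained a call. At 28 °C, RNase_MRP and dre-mir-204-2 lost calls. With 3 libraries a group and no depth in the table, small changes of weakly expressed genes were not detectable.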
